A study of Mus musculus with 6 samples.

Results

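The genes described here are 34 interferon-stimulated effectors outside the oligoadenylate synthetase family, the antiviral and regulatory proteins that cells make after an interferon binds its receptor. They were taken by gene symbol from 55536 genes in the deposited counts. All 34 were present, with 231 to 19914 counts per library, and all 34 passed the filter on low counts, among 15696 genes tested. The samples were 6 mouse melanomas: 3 grown from B16 cells carrying a vector control and 3 from B16 cells with an ATM knockout, labelled ATM KO B16. B16 is an established line from a melanoma that arose in a C57BL/6 mouse. The cells were placed under the skin of C57BL/6J mice and the tumors were taken on day 13. No drug or other agent is named for either group. How ATM was disrupted, whether the knockout line was a clone or a pool, and whether any tumors shared a mouse are not given in the sources used here. P-values therefore measure only the spread between these 6 tumors, which may be technical, and genotype and cell line cannot be told apart. Atm itself was at 111, 107 and 95.5 CPM (defined below) in control tumors and 97.2, 132 and 107 CPM in knockout tumors. Its log2 fold change was 0.10 ± 0.13 (edgeR adjusted p = 0.707). Host cells have their own Atm and a count over the whole gene does not show a disrupted protein, so these levels do not check the labels.

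Type I interferons bind a receptor at the cell surface and activate the kinases JAK1 and TYK2. The signal ends in the factor ISGF3, of which IRF9 is a subunit and which binds the interferon-stimulated response element (ISRE) in promoters. Interferon gamma acts on a different element, called GAS, and many of the genes below answer to both signals. In tumors they can be made by the cancer cells, by infiltrating immune cells and by stroma. The title of the series links ATM inhibition to leakage of mitochondrial DNA, to activation of cGAS and STING and to immunotherapy, and induction of interferon is a known output of that sensing pathway. The comparison asks how far these effector transcripts differed between tumors of the 2 cell lines.

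RefSeq promoter windows (GRCm38.p6, 250 bases before to 50 after a start site) matched 27 of the 34 members by symbol. The ISRE core GAAANNGAAA, searched on both strands with overlapping matches allowed, occurred in a window of 11 of these 27 genes (40.7%), against 3.99% of 27025 genes in the table. The GAS core TTCNNNGAA, which reads the same on both strands, occurred in 5 of the 27 (18.5%), against 9.55% of all genes. A match is a run of letters and was not tested as a binding site. The stretches below were picked from the windows that hold core matches, which are shown in capitals. Matches in the windows of Bst2, Eif2ak2, Slfn5, Trim21 and Trim30a are not shown. Ifit3 and Ifit3b are neighboring copies and are shown together because their windows share an unbroken run of 169 bases.

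Ifit1, chr19:34640769-34640828, plus strand, bases 120 to 61 before the start site: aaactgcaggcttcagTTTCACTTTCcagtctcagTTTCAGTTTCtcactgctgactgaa
Ifit3, chr19:34583359-34583428, plus strand, bases 170 to 101 before the start site: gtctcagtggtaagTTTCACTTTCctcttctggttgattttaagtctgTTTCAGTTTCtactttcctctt
Ifit3b, chr19:34607757-34607826, plus strand, bases 200 to 131 before the start site: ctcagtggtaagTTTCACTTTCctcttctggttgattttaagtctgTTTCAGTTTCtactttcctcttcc
Isg15, chr4:156200859-156200918, minus strand, bases 100 to 41 before the start site: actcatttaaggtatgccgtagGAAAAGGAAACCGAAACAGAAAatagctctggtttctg
Ddx60, chr8:61928017-61928086, plus strand, bases 70 to 1 before the start site: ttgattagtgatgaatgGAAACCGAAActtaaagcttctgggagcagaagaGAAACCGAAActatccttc
Rsad2, chr12:26456543-26456592, minus strand, bases 140 to 91 before the start site: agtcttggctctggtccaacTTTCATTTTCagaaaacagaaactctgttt

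Ifit1, Ifit3, Ifit3b and Ddx60 each hold 2 separate core matches in these stretches, Isg15 a run of 3 overlapping ones, and Rsad2 a single one. Ifi44, the member with the clearest difference between the groups, has no core match in its window. It is 1 of 16 members with a window and no match, among them Ifit2, Cmpk2, Herc6 and Xaf1. The search took 1 exact pattern in these windows, so it does not show that a gene lacks an ISRE.

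The libraries held 22101124 to 29037715 counts on genes, of which the 34 members took 0.407% to 0.598%. Levels are CPM, counts relative to the library total scaled by TMM, a correction for differences in RNA composition. A log2 fold change below 0 means a lower level in ATM knockout tumors and is given ± SE from the quasi-likelihood test of edgeR, and a gene is called when its Benjamini-Hochberg adjusted p over all genes tested is below 0.05. The 8 melanoma markers, among them Mlana, Pmel and Tyr, were read in every tumor, and their summed level was 19600 to 28200 CPM in control and 19900 to 20100 CPM in knockout tumors. Of the 8, Dct fell (-0.75 ± 0.15, edgeR adjusted p = 0.0434). Slc45a2 (0.34 ± 0.11, edgeR adjusted p = 0.135) and Mitf (0.15 ± 0.09, edgeR adjusted p = 0.357) were higher without overlap and not called. Mlana had an unadjusted edgeR p of 0.0395 with overlapping groups (-0.40 ± 0.16, edgeR adjusted p = 0.193). One library stood apart. Vector control tumor 1 had the highest melanoma marker level (28200 CPM) and the lowest levels of leukocyte, macrophage and fibroblast markers (226, 470 and 275 CPM). The other 5 tumors lay at 381 to 567, 872 to 1330 and 1320 to 2990 CPM for those 3 lists. In bulk tissue fewer cells of a type and less RNA per cell cannot be told apart. Skeletal muscle markers ran from 23.8 to 7050 CPM in control and 569 to 6700 CPM in knockout tumors. Member values that move by over 1.5 times without vector control tumor 1 are given with and without it, except medians by promoter match.

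Interferon-stimulated effector transcripts had fold changes mostly below 0 in ATM knockout tumors, and 1 member passed the test. Ifi44, an interferon-induced cytoplasmic protein, fell to 0.474 of its control level. No member was called as higher. The 1 call among 34 is 2.94%, near the 2.75% of all tested genes called lower, so the count alone does not set the members apart, and 2.21% of all genes were called higher. Over all genes 431 were called lower and 347 higher, or 356 lower and 504 higher when libraries were scaled by size alone, with Ifi44 still called. At an unadjusted p below 0.05 there were 10 members lower (29.4%) and 0 higher, against 12.3% and 10.6% of all genes. DESeq2 called 6 members lower, Ifi44, Mx2, Bst2, Rtp4, Eif2ak2 and Phf11d, and 0 higher, against 8.12% and 6.5% of the genes for which it gave an adjusted p. Limma-voom called Ifi44 alone. The log2 fold change was below 0 in 30 of 34 members (88.2%), against 50.9% of all genes, with a median of -0.24 against -0.01. Without vector control tumor 1 the members below 0 numbered 23 and the median of the 34 was -0.14. In that fit 8 members were lower and 1 (Herc6) higher at an unadjusted p below 0.05, against 13.2% and 12.6% of all genes, and Ifi44 was the 1 member called. Markers of other cells also differed. Of 7 endothelial markers 6 lay below 0 (median -0.50), with Pecam1, Cdh5 and Tie1 lower and Vwf higher without overlap, and edgeR called none. At an unadjusted p below 0.05 there were 2 lower and 1 higher, and DESeq2 called 1, as lower. Their sums were 191 to 332 CPM in control and 192 to 222 CPM in knockout tumors, and their part in the members' values was not tested. The members were chosen with results of these data known, so these counts describe the list and were not tested as a set.

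**Figure D1:**
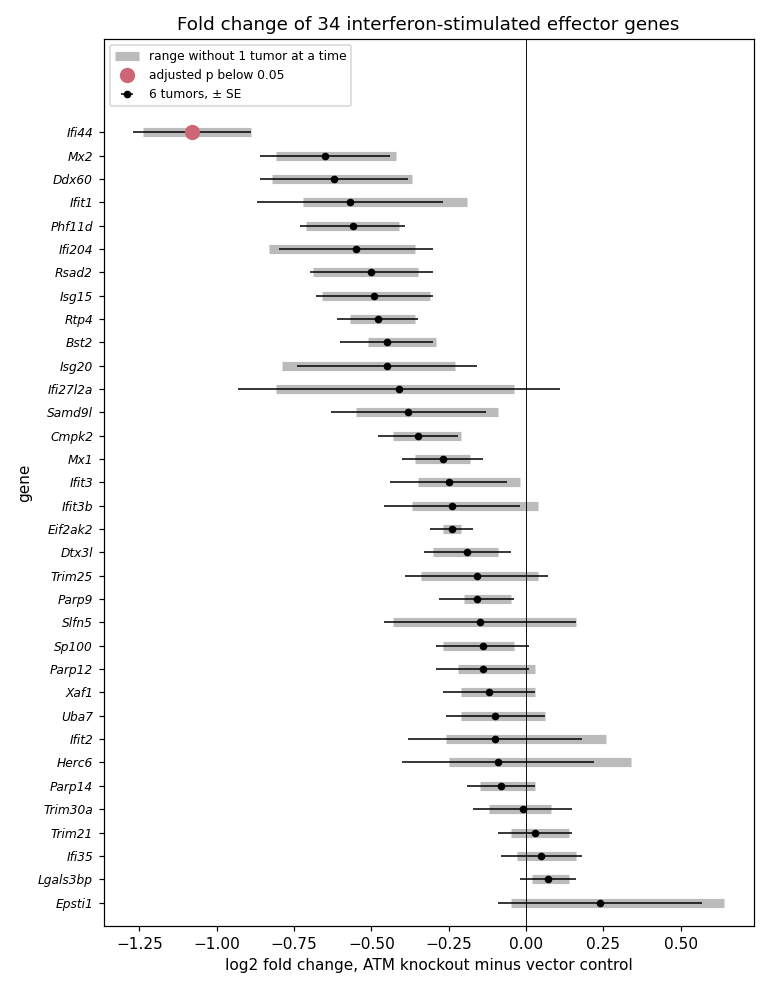
Log2 fold change (x axis, ATM knockout minus vector control) of each of 34 genes (y axis), with points for the fit on 6 tumors, thin bars for ± 1 SE and grey bars for the range when 1 tumor at a time was left out. 30 of 34 points lie below 0, and Ifi44 at -1.08 carries the red mark of an adjusted p below 0.05.

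Ifi44 (ENSMUSG00000028037.13, chromosome 3, 151730922 to 151749960, GRCm38, minus strand) was at 99.4, 67.2 and 74.6 CPM in vector control tumors 1, 2 and 3. Its levels were 33.4, 34.3 and 46.6 CPM in the knockout tumors, in the same order of number. Every knockout tumor lay below every control tumor. The log2 fold change was -1.08 ± 0.19 (edgeR adjusted p = 0.0396). Without vector control tumor 1 it was -0.89 and still called (edgeR adjusted p = 0.0322). Leaving out any of the other 5 tumors kept the direction (-1.24 to -0.99) but ended the call (edgeR adjusted p = 0.0583 to 0.159). Those 5 fits called 2 to 99 genes lower in all, against 431 with 6 tumors. The call also ended when no filter on low counts was used (edgeR adjusted p = 0.0551). The 11 other tested genes within 1 Mb had a median of 0.13.

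The groups did not overlap in 6 members, all lower in knockout tumors (17.6% of members), where 15.4% of all genes were lower and 14.3% higher without overlap. Ifi44 is 1 of the 6, and the other 5 are Mx2, Phf11d, Rtp4, Bst2 and Eif2ak2. None of those 5 was called by edgeR, while DESeq2 called each of them. Without vector control tumor 1 the same 6, Slfn5 and Ifi27l2a were lower and Herc6 higher without overlap, where 22.5% of all genes were lower and 22.3% higher.

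The first set of effectors acts on RNA and on translation. Of the Ifit proteins in this set, IFIT1 binds viral RNA that lacks the host cap modification. Eif2ak2 encodes PKR, a kinase that halts translation on double-stranded RNA, Ddx60 encodes a helicase-like protein and Isg20 an RNA exonuclease. All 7 genes had a log2 fold change below 0 (median -0.25) and none was called. Leaving out vector control tumor 1 put 5 of the 7 below 0, with a median of -0.19. Eif2ak2 was at 190, 178 and 181 CPM in the control tumors and at 148, 154 and 163 CPM in the knockout tumors. The spread within each group was small (SD 6.33 and 7.57 CPM) and the groups were apart. Its log2 fold change was -0.24 ± 0.07 (edgeR adjusted p = 0.0995). Ddx60 was at 78.8, 48.7 and 52.5 CPM in control and at 33.7, 33.9 and 49.5 CPM in knockout tumors (-0.62 ± 0.24, edgeR adjusted p = 0.198), or -0.37 ± 0.19 without vector control tumor 1. Knockout tumor 3 was inside the control range.

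The Ifit genes lie in a cluster on chromosome 19, between 34550694 and 34650009, and none was called. Ifit1 was at 155, 76.5 and 86.0 CPM in the control tumors and at 63.8, 63.9 and 86.5 CPM in the knockout tumors (-0.57 ± 0.30, edgeR adjusted p = 0.325). Vector control tumor 1 was high and the other 2 control tumors overlapped the knockout group. Ifit3, the fourth most abundant member per exon length, was at 180, 112 and 128 CPM in control and at 110, 109 and 134 CPM in knockout tumors (-0.25 ± 0.19). Ifit2 had group means of 239 ± 94.4 and 222 ± 34.6 CPM (SD, n = 3 per group; -0.10 ± 0.28), and Ifit3b of 37.8 ± 11.8 and 31.9 ± 3.82 CPM (-0.24 ± 0.22). Without vector control tumor 1 these differences shrank or turned: -0.19 for Ifit1, -0.02 for Ifit3, 0.04 for Ifit3b and 0.26 for Ifit2, with no call among them. Of the 50-base windows in Ifit3 transcripts, 51.2% occur also in Ifit3b. Reads that align to both genes may not have been counted, so both levels may be understated and the share of each gene is uncertain. The log2 ratio of Ifit3 to Ifit3b CPM stayed between 1.82 and 1.97 in the 6 tumors. The ratio of Ifit1 to Ifit3 ranged more, from -0.79 to -0.22, and was highest in vector control tumor 1. Isg20 had means of 24.4 ± 4.63 and 17.8 ± 6.90 CPM (-0.45 ± 0.29, or -0.29 without vector control tumor 1), with overlapping groups.

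ISG15 is a ubiquitin-like protein that is joined to target proteins. Uba7 encodes the enzyme that activates it and Herc6 the main ligase for it in the mouse. Isg15 was the third most abundant member per exon length, at 148 CPM per kilobase of exon over the 6 tumors. It was at 161, 112 and 120 CPM in control and at 81.5, 83.4 and 114 CPM in knockout tumors, a log2 fold change of -0.49 ± 0.19 (edgeR adjusted p = 0.193). The value was -0.31 ± 0.16 when vector control tumor 1 was left out. Knockout tumor 3 was inside the control range and the other 2 were below it. The member genes for enzymes of the same reaction, Uba7 and Herc6, had values nearer 0, and whether they differ from Isg15 was not tested. Ube2l6, outside the members, encodes another enzyme of it. That gene was higher without overlap in knockout tumors and not called (0.55 ± 0.12, edgeR adjusted p = 0.051). Uba7 had means of 101 ± 20.9 and 94.0 ± 8.71 CPM (-0.10 ± 0.16, or 0.06 without vector control tumor 1). Herc6 had means of 184 ± 81.8 and 173 ± 26.2 CPM (-0.09 ± 0.31), and its control spread came from vector control tumor 1 at 278 CPM, against 131 and 143 CPM in the other control tumors. Without that tumor its value was 0.34. Uba7 shares 233 exon bases on its strand with the gene Gm20661, and Herc6 shares 1269 with Gm45193, which is listed at 0 in every library.

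Genes of proteins that act at membranes or on nucleotides had a median of -0.41 over 6 genes, all below 0 and none called. All 6 were still below 0, with a median of -0.25, when vector control tumor 1 was left out. Rsad2 encodes viperin, which makes a chain-terminating nucleotide, and Cmpk2 encodes a nucleotide kinase. Their start sites lie 12.75 kb apart on chromosome 12. Rsad2 was at 429, 294 and 351 CPM in control and at 230, 212 and 317 CPM in knockout tumors (-0.50 ± 0.20, edgeR adjusted p = 0.203). Cmpk2 was at 132, 94.2 and 109 CPM in control and at 88.2, 79.9 and 94.9 CPM in knockout tumors (-0.35 ± 0.13, edgeR adjusted p = 0.186), or -0.21 ± 0.10 without vector control tumor 1. In both genes knockout tumor 3 was inside the control range and the other 2 were below it. The log2 ratio of Rsad2 to Cmpk2 CPM was 1.68 ± 0.03 in control and 1.51 ± 0.20 in knockout tumors (SD, n = 3 per group).

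Mx1 and Mx2 encode dynamin-like GTPases of an antiviral family and lie next to each other on chromosome 16. C57BL/6 mice are known to carry a defective Mx1, and the RNA level of neither gene shows whether a working protein is made. Mx2 was at 45.5, 29.9 and 30 CPM in control and at 19.4, 20.5 and 27.3 CPM in knockout tumors, without overlap (-0.65 ± 0.21, edgeR adjusted p = 0.142, DESeq2 adjusted p = 0.0376). Its log2 fold change was -0.42 ± 0.16 with vector control tumor 1 left out. Mx1 had means of 68.3 ± 10.9 and 56.8 ± 3.08 CPM (-0.27 ± 0.13) and overlapping groups. The log2 ratio of Mx1 to Mx2 CPM ran from 0.70 in vector control tumor 1 to 1.61 in knockout tumor 1. Bst2 encodes tetherin, which holds budding virus at the cell surface. It was the most abundant member per exon length, at 475 ± 84.3 and 348 ± 41.6 CPM per kilobase of exon (SD, n = 3 per group). Its level was 517, 389 and 381 CPM in control and 333, 271 and 339 CPM in knockout tumors, without overlap (-0.45 ± 0.15, edgeR adjusted p = 0.142). The fold change of Bst2 was -0.29 ± 0.11 on the log2 scale with vector control tumor 1 left out. Bst2 also marks plasmacytoid dendritic cells and plasma cells. The other 6 plasmacytoid markers summed to 121 to 152 CPM in control and 132 to 148 CPM in knockout tumors, mostly from Tcf4. Siglech, the most specific of them, was at 0.221 to 2.28 CPM in control and 0.616 to 1.32 CPM in knockout tumors. B and plasma cell markers summed to 5.62 to 53.5 CPM and 13.8 to 16.4 CPM, and the part of both cell types in the Bst2 difference was not tested. Samd9l, an antiviral and growth-limiting protein, had means of 361 ± 111 and 278 ± 58.3 CPM (-0.38 ± 0.25), and -0.09 without vector control tumor 1.

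**Figure D2:**
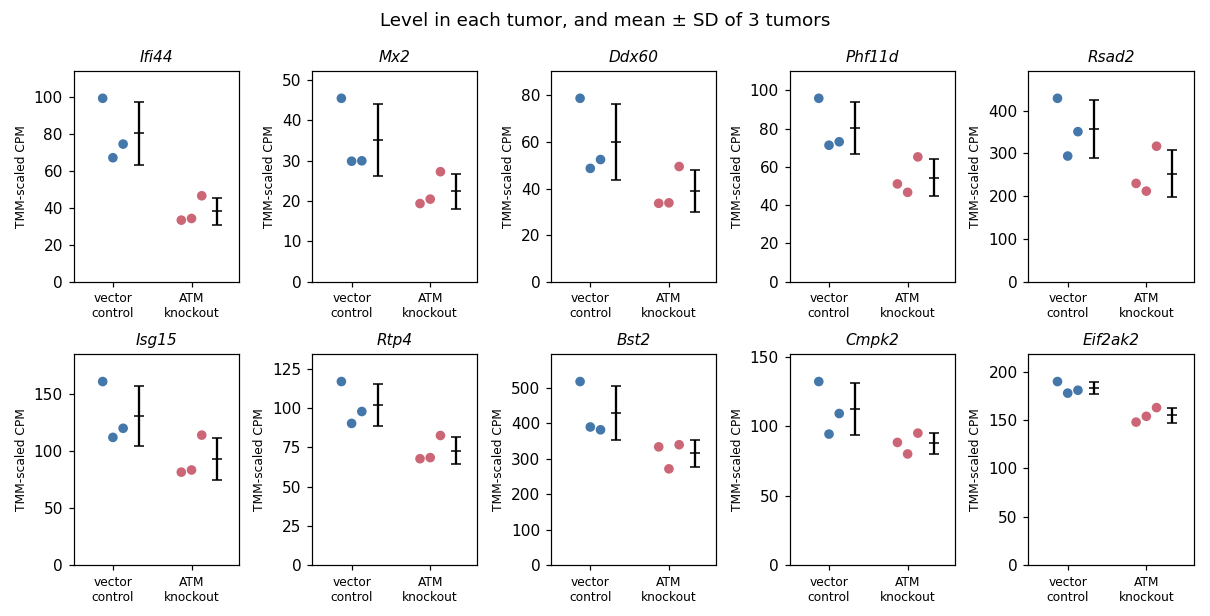
TMM-scaled CPM (y axis, from 0) of the 10 genes with an unadjusted edgeR p below 0.05, by group (x axis), with 1 point per tumor in the order of its number and the mean ± SD of 3 tumors beside it. The groups are apart in Ifi44, Mx2, Phf11d, Rtp4, Bst2 and Eif2ak2, and vector control tumor 1 is the highest point in every panel.

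The ADP-ribosyltransferase genes had values close to 0. PARP9 and DTX3L form a complex that modifies histones and viral proteins, PARP14 adds single ADP-ribose units and PARP12 does so at the Golgi and on stress granules. All 4 values lay between -0.19 and -0.08 with none called (smallest edgeR adjusted p = 0.477). Parp12, the most abundant of the 4 per exon length, was at 342, 250 and 245 CPM in control and at 259, 227 and 271 CPM in knockout tumors, with overlapping groups. Parp14 had means of 354 ± 51.5 and 333 ± 15.3 CPM. Parp9 had means of 231 ± 29.1 and 206 ± 20.1 CPM, and Dtx3l of 216 ± 27.4 and 189 ± 27.8 CPM. Parp9 and Dtx3l face away from each other on chromosome 16 with start sites 0.68 kb apart, and 458 exon bases of the pair overlap on opposite strands. No source used here gives the strand setting of the counting, so reads in that overlap may have been set aside. The log2 ratio of Parp9 to Dtx3l CPM was 0.10 ± 0.05 in control and 0.13 ± 0.11 in knockout tumors. Values on 5 tumors, without vector control tumor 1, were 0.03 for Parp12 and Parp14, -0.05 for Parp9 and -0.09 for Dtx3l.

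Of the tripartite motif genes and Sp100, none was called and the median was -0.07, or -0.02 without vector control tumor 1. Trim25 and Trim21 encode ubiquitin ligases, the first a helper of RNA sensing and the second a receptor for antibody-coated particles in the cytosol. SP100 is a component of PML nuclear bodies. Trim21 (47.0 ± 6.27 and 47.9 ± 4.42 CPM), Trim30a (127 ± 21.9 and 127 ± 17.9 CPM) and Sp100 (135 ± 17.8 and 123 ± 20.3 CPM) had overlapping groups and values of 0.03, -0.01 and -0.14. The sign of Trim30a changed with the scaling, to 0.04 with library size alone. Trim21 was at 0.14 and Trim30a at 0.07 without vector control tumor 1. Trim30a has relatives in the same cluster, and 5.98% of its 50-base windows occur in Trim30d.

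The remaining 10 genes encode proteins of mixed or less settled function. Of these 7 lay below 0 and 1, Ifi44, was called. Their median was -0.28, and -0.39 without vector control tumor 1. Rtp4 encodes a chaperone of receptors that also has antiviral activity. It was at 117, 90.3 and 97.9 CPM in control and at 67.8, 68.5 and 82.6 CPM in knockout tumors, without overlap (-0.48 ± 0.13, edgeR adjusted p = 0.0829). It was called by DESeq2 (adjusted p = 0.00844) and by edgeR when no filter on low counts was used (adjusted p = 0.0455). Phf11d, of a cluster of PHD finger genes on chromosome 14, was at 95.8, 71.3 and 73.1 CPM in control and at 51.1, 46.7 and 65.2 CPM in knockout tumors, without overlap (-0.56 ± 0.17, edgeR adjusted p = 0.116). Phf11c holds 5.71% of its 50-base windows. Ifi204, a DNA-binding protein of the family that includes human IFI16, had means of 119 ± 16.9 and 81.1 ± 26.9 CPM (-0.55 ± 0.25, edgeR adjusted p = 0.257). Its groups overlapped, and 20.0% of its 50-base windows occur in other genes, most of them in Ifi211.

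Lgals3bp, Ifi35, Xaf1 and Epsti1 had values near or above 0. Lgals3bp encodes a secreted glycoprotein that binds galectins and was the second most abundant member per exon length. It was at 634, 604 and 578 CPM in control and at 651, 575 and 681 CPM in knockout tumors, with overlapping groups (0.07 ± 0.09). Ifi35 had means of 87.2 ± 12.7 and 90.1 ± 9.12 CPM (0.05 ± 0.13), and Xaf1, which encodes an antagonist of the apoptosis inhibitor XIAP, of 73.8 ± 12.9 and 67.7 ± 8.43 CPM (-0.12 ± 0.15). Epsti1 had the highest value of all members, 0.24 ± 0.33, with means of 18.4 ± 8.37 and 21.8 ± 1.81 CPM and overlapping groups. Without vector control tumor 1 the values were 0.11 for Lgals3bp, 0.16 for Ifi35, 0.03 for Xaf1 and -0.05 for Epsti1.

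Vector control tumor 1 was the highest of the 6 tumors in 26 of 34 members and lay above the member's own mean over 6 tumors in 30 (median log2 deviation 0.40). The median deviation was -0.07 and 0.09 for the other 2 control tumors, numbers 2 and 3. It was -0.14, -0.26 and 0.08 for knockout tumors 1, 2 and 3. By this median knockout tumor 3 was near vector control tumor 3, and 25 members lay above their mean in each of these 2 tumors. Single members differed between them, and the 6 members without overlap between groups were lower in knockout tumor 3. Knockout tumor 2 was the lowest tumor in 15 members. The 5 erythroid markers (hemoglobin genes and Alas2) summed to 576, 61.9 and 733 CPM in control and to 20.1, 8.88 and 454 CPM in knockout tumors. They too were lowest in knockout tumors 1 and 2, low in vector control tumor 2 and high in the other 3 tumors, and their part in the members' values was not tested. The median coefficient of variation among control tumors was 19.0% over the members and 12.2% over all genes tested. Among knockout tumors it was 13.2% and 10.1%.

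**Figure D3:**
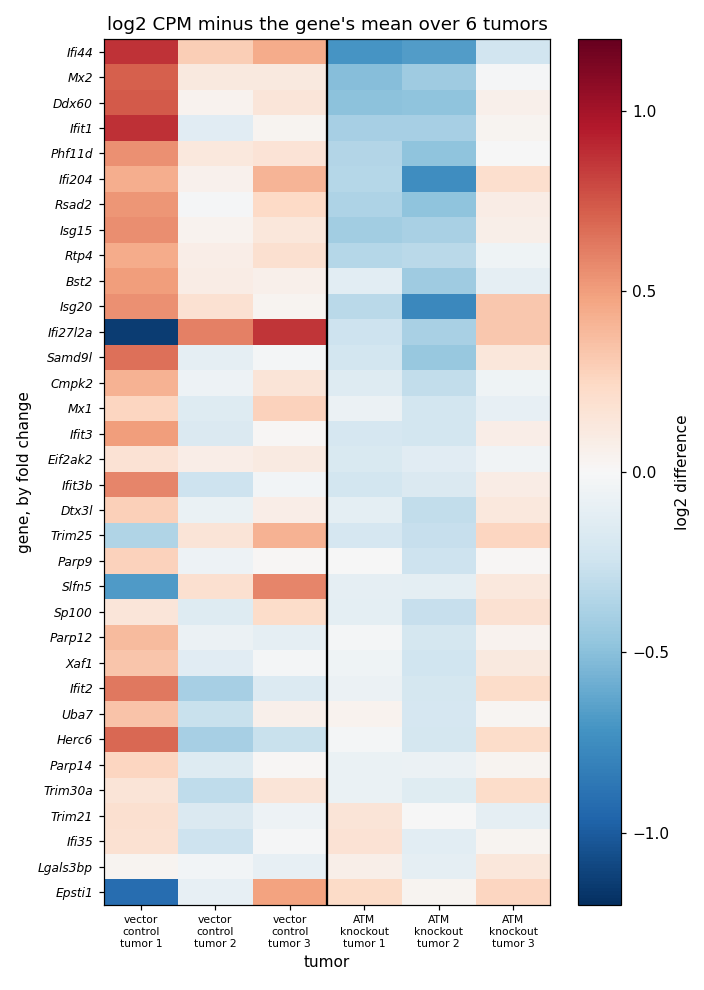
Log2 CPM of each of 34 genes (rows, ordered by fold change) in each of 6 tumors (columns) minus the gene's mean over the 6 tumors, in red where higher and blue where lower. The first column, vector control tumor 1, is red in 30 rows and blue in Slfn5, Ifi27l2a, Trim25 and Epsti1.

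Slfn5, Ifi27l2a, Trim25 and Epsti1, singled out after their values were seen, were each lowest in vector control tumor 1. Slfn5, of the Schlafen family of growth and antiviral regulators, was at 56.7, 104 and 137 CPM in control and at 84.5, 83.8 and 99.5 CPM in knockout tumors. Ifi27l2a, a small interferon-induced membrane protein, was at 12.6, 42.2 and 50.4 CPM in control and at 23.3, 21.2 and 34.7 CPM in knockout tumors. In both genes the knockout tumors lay above vector control tumor 1 and below vector control tumors 2 and 3. Trim25 was at 31.0, 44.4 and 53.2 CPM in control and at 34.7, 32.8 and 47.7 CPM in knockout tumors, and Epsti1 at 10.2, 18.0 and 26.9 and at 22.6, 19.7 and 23.0 CPM. Without vector control tumor 1 the log2 fold change was -0.43 ± 0.14 for Slfn5 (edgeR adjusted p = 0.115) in place of -0.15 ± 0.31. For Ifi27l2a it was -0.81 ± 0.23 (edgeR adjusted p = 0.0945) in place of -0.41 ± 0.52. For Trim25 it was -0.34 and for Epsti1 -0.05, so all 4 were then below 0 and none was called. That tumor also held the lowest leukocyte, macrophage and fibroblast marker levels, given above, and the part of those cells in these 4 genes was not tested.

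**Figure D4:**
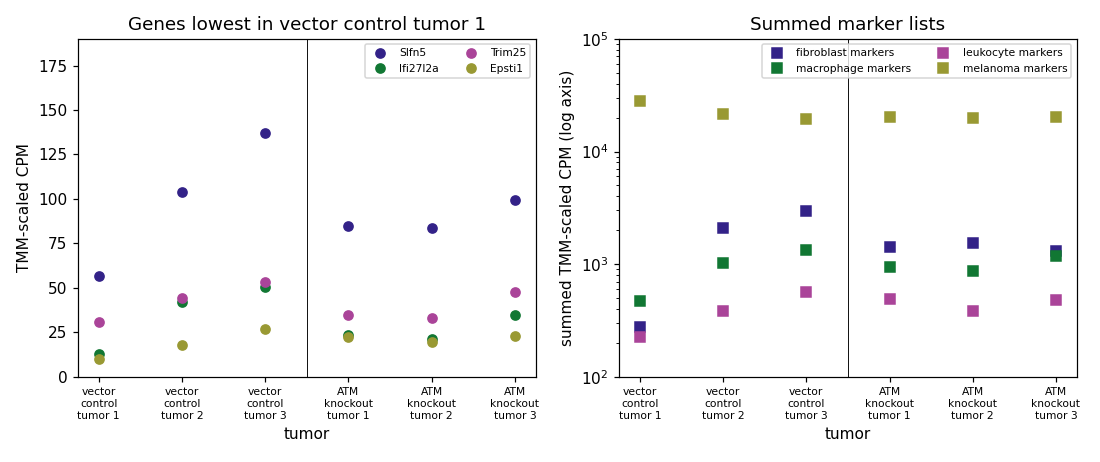
Left, TMM-scaled CPM (y axis, from 0) of Slfn5, Ifi27l2a, Trim25 and Epsti1 in each of 6 tumors (x axis). Right, the summed CPM (log axis) of fibroblast, macrophage, leukocyte and melanoma marker lists in the same tumors, where vector control tumor 1 is lowest for the first 3 lists and highest for melanoma markers at 28200 CPM.

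Other genes of the interferon pathway gave the setting for these values. Of 12 tested receptor, kinase and factor genes edgeR called 1 lower and none higher. Before adjustment 3 had an edgeR p below 0.05, all lower and without overlap. Besides Irf9 these were Ifnar1 (-0.24 ± 0.06, edgeR adjusted p = 0.0925) and Ifnar2 (-0.39 ± 0.09, edgeR adjusted p = 0.0572). Irf9, the DNA-binding subunit that directs ISGF3 to the ISRE, was at 104, 90.8 and 96.7 CPM in control and at 64.3, 62.3 and 70.0 CPM in knockout tumors, without overlap. Its log2 fold change was -0.57 ± 0.08 (edgeR adjusted p = 0.0237). It was -0.61 to -0.51 without 1 tumor at a time, and the call ended without vector control tumor 2 or 3 or knockout tumor 1 or 2 (edgeR adjusted p = 0.0657 to 0.129). The median of the 12 was -0.08, and DESeq2 called 3 of them lower and 0 higher. None of 5 tested inhibitors of signaling was called by edgeR or limma-voom, with 1 higher at an unadjusted p below 0.05 and in DESeq2. Among 32 further interferon-stimulated genes outside the members, which include Ifitm3, Dhx58, Zbp1 and Pml, edgeR and limma-voom called none. DESeq2 called 5 lower and 2 higher, the counts also found with p below 0.05 before adjustment, and the median was -0.08 with 22 below 0. The smallest edgeR adjusted p values in this list belonged to genes of opposite direction, both without overlap. Ube2l6 was higher (0.55 ± 0.12, edgeR adjusted p = 0.051) and Cxcl10 lower (-0.99 ± 0.21, edgeR adjusted p = 0.0525). Of 28 tested close relatives of members edgeR called none and DESeq2 1, as lower. Those lower numbered 3 and those higher 1 when p was left unadjusted (below 0.05), and their median was -0.04.

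Transcripts of the interferons themselves were scarce. Of 21 interferon genes 17 had no count in any library. For interferon beta (Ifnb1) the control tumors gave 2, 3 and 1 counts and the knockout tumors 0, 0 and 1. Ifng, the gene of interferon gamma, was the only one tested, with means of 1.28 ± 0.591 and 2.13 ± 0.933 CPM in control and knockout tumors (0.73 ± 0.45, edgeR adjusted p = 0.407), with overlapping groups. T cell markers summed to 34.3 to 46.2 CPM in control and 49.4 to 99.2 CPM in knockout tumors, without overlap. Of these 8 markers edgeR called none. At an unadjusted p below 0.05 there were 5 higher, and DESeq2 called 3 higher. Their part in the level of the members was not tested.

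The fold changes were also set beside promoter letters and position, with no test. The 11 members with an ISRE core match had a median log2 fold change of -0.25, with values from -0.62 to 0.03. The 16 without a match had a median of -0.14 and included Ifi44 at -1.08. The 7 with no window in the table, Ifi204, Ifi27l2a, Mx1, Mx2, Parp14, Parp9 and Rtp4, had a median of -0.41. These medians rest on all tumors and were not taken without vector control tumor 1, which moved many of the single values. The other tested genes within 1 Mb had a median below -0.3 for 6 members. It was -0.40 over 7 genes near Ddx60, -0.38 over 8 near Samd9l, -0.36 over 2 near Rsad2 and Cmpk2, -0.32 over 7 near Epsti1 and -0.31 over 13 near Phf11d. Of these 6 members Epsti1 had the opposite sign to its neighbors. Among the other members without overlap between groups, the median was -0.23 over 67 genes near Bst2, -0.06 over 7 near Mx2, 0.00 over 17 near Eif2ak2, 0.12 over 12 near Rtp4 and, as given above, 0.13 near Ifi44. Whether a change that spans a chromosome segment has a part in any member's value was not tested.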

How the data were processed

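RNA of 6 tumors was sequenced, 1 library each. The deposited values are raw counts per gene. The submitters' processing notes name HTSeq, STAR, SAMtools, Trim Galore and cutadapt, with no version or role, and the builds mm10 and GRCm38. Rows that name no gene (reads outside genes, 16.7% to 18.2% of those listed, and reads on several genes, 1.21% to 1.38%) were left out. Reads that align to several places are listed at 0, so part of the signal of duplicated genes may be lost.

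All 55536 identifiers matched GENCODE M21, which gave positions and exon lengths. Genes were filtered with filterByExpr (minimum count 10, minimum total 15), scaled by TMM and tested across all genes with edgeR 4.0.16 (robust quasi-likelihood, genotype as the term). DESeq2 1.42.0 and limma-voom (limma 3.58.1) were alternatives, as were other scalings and filters, non-robust dispersions, a replicate block and leaving out each library. The scripts were tested on simulated data. Members and lists were chosen with earlier results of these data known. Values per tumor are given for members with an unadjusted p below 0.05, with groups that do not overlap, or among the 6 highest per exon length, and for Ifit1, Herc6 and other genes singled out after their values were seen. The counts and role medians without vector control tumor 1 and the alternatives for Irf9 were also added after seeing the data.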

Additional observations from a re-analysis of the deposited data

How the results depend on the processing

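The members' median log2 fold change stayed below 0 in all 14 alternatives, and no member was called higher in any. DESeq2 called 920 genes higher and 1150 lower over all genes, and 6 members lower. The tumor numbers are not stated to pair the tumors, and deviations of same-numbered tumors correlated at 0.0437, -0.272 and -0.42 over genes. With the tumor number as a replicate block 0 genes were called in either direction, so 0 members were lower, and Ifi44 was at -1.07 (edgeR adjusted p = 0.129). Irf9, at -0.57, also lost its call there (edgeR adjusted p = 0.119). Without 1 library at a time, 0 to 587 genes were called higher, 2 to 622 lower and 0 to 1 members lower, and the members' median ran from -0.32 (without ATM knockout tumor 3) to -0.14 (without vector control tumor 1). As in the fit on 6 tumors, the spread in these fits rests on both groups together, here with 2 tumors in 1 group.

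Signs turned in members with values between -0.24 and 0.24 in the fit on 6 tumors. Trim30a turned with library size alone (0.04), no filter on low counts (0.01), at least 1 CPM in 3 libraries (0.02) and the replicate block (0.00), and ran from -0.12 to 0.08 without 1 library. The same ranges were -0.26 to 0.26 for Ifit2, -0.37 to 0.04 for Ifit3b, -0.03 to 0.16 for Ifi35, -0.21 to 0.03 for Xaf1, -0.34 to 0.04 for Trim25, -0.22 to 0.03 for Parp12, -0.15 to 0.03 for Parp14, -0.25 to 0.34 for Herc6, -0.05 to 0.64 for Epsti1, -0.21 to 0.06 for Uba7, -0.05 to 0.14 for Trim21 and -0.43 to 0.16 for Slfn5. The cause of these turns was not tested.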
